A study of Mus musculus with 9 samples.

Results

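Laminins are cross-shaped proteins of basement membranes, each built from 1 alpha, 1 beta and 1 gamma chain, and each trimer is named by the numbers of its chains. The Lama3 and Lamb3 chains serve the anchorage of basal keratinocytes to the membrane beneath them, and laminin-511 (Lama5, Lamb1 and Lamc1) is the other main laminin of that membrane. Laminin-411 and laminin-421, with the Lama4 chain, belong to vessel walls, and laminin-211 and laminin-221, with the Lama2 chain, surround muscle fibres and Schwann cells. The 9 genes described here, Lama2, Lama3, Lama4, Lama5, Lamb1, Lamb2, Lamb3, Lamc1 and Lamc3, were taken by symbol from the 49671 gene rows of a mouse count table, and each matched 1 row. The table also holds a row for Lama1, which is given as values beside them.

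RNA was sequenced from sorted skin cells of mice with 2 copies of the normal filaggrin gene (Flg wt/wt, 5 samples) or with 2 knockout copies (Flg ko/ko, 4 samples). Filaggrin packs keratin filaments in the outermost skin layer, and the study asked how its loss alters keratinocyte gene expression. Cells without CD45, a surface protein of leukocytes, and with CD49f, the integrin alpha-6 chain that binds laminin, were collected by flow cytometry from skin cell suspensions. The labels name no treatment, and the sources used here give neither strain, age nor the design of the knockout allele. Each title carries its own identifier but none is said to be an animal, and the replicate numbers used here only name the samples in the order of their records. The p-values measure the spread between these samples, which may be partly technical.

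Libraries held 15601859 to 23200440 counts, and the 9 genes had between 44 and 3692 counts in a library. Values in CPM, counts scaled to a common library total, use totals adjusted with TMM, a trimmed mean of expression ratios. Flg had 0 to 6 counts per library, too few to check the genotype labels. The labels call the cells epidermal, yet Dcn, a matrix proteoglycan of fibroblasts, had 10868 to 21870 CPM while Krt14, the basal keratin, had 858 to 1834 CPM. The 15 fibroblast markers summed to 27142 and 32895 CPM in wt/wt replicates 2 and 1, to 35755 and 42398 CPM in ko/ko replicates 1 and 3, and to between 56689 and 63000 CPM in the other 5 libraries. The 15 basal keratinocyte markers summed to 5083 CPM in wt/wt replicate 2, to 3918 and 3580 CPM in ko/ko replicates 3 and 1, and to between 2423 and 2825 CPM in the other 6. The markers Gsn and Dcn made up most of the fibroblast sums. Their wt/wt means were 23677 and 15946 CPM, against 48056 CPM for all 15 fibroblast markers. In ko/ko the means were 23889 and 17100 CPM, against 50405 CPM. In such mixed samples, fewer cells of a type and less RNA per cell cannot be told apart. The library numbers in the labels form a separate run for each genotype, so whatever followed that numbering cannot be told apart from genotype.

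No laminin chain gene differed between the genotypes past the threshold. By edgeR's quasi-likelihood test with Benjamini-Hochberg adjustment over 18435 genes, 0 of the 9 genes passed as higher and 0 as lower in ko/ko, where 0.00542% of all genes tested passed as higher and 0% as lower. Only Lama2 had an unadjusted p under 0.05, and it was higher, against 8.86% of all genes higher and 6.42% lower. DESeq2 and limma voom with sample quality weights also called 0 of the 9, where DESeq2 called 2.53% of all genes as higher and 1.11% as lower, and voom 6.6% and 3.17%. At an unadjusted p under 0.05, DESeq2 had 1 laminin gene higher and voom had 1 higher and 2 lower, against 10.1% and 7.78% of all genes in DESeq2 and 16.6% and 12.5% in voom. The genotypes overlapped in CPM for all 9 genes, while 3.51% of all genes lay without overlap higher in ko/ko and 2.74% lower, 6.25% in all. Of the 9 log2 fold changes of ko/ko over wt/wt, 6 were positive and 3 negative, against 47.4% and 52.6% of all genes tested. Their median was 0.11, against -0.03 over all genes. The 6 positive genes each have over 8 kilobases of exon, and of all genes of that length 67.3% were positive. The 3 negative genes have 6082 to 6612 exon bases, and of all genes of 6 to 8 kilobases 54.4% were positive. With every library corrected for its dependence on exon length, 4 of the 9 were positive and 5 negative. The median in that fit was -0.16, against -0.10 over all genes. The part of exon length in the signs of the 9 genes was not tested.

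**Figure D1:**
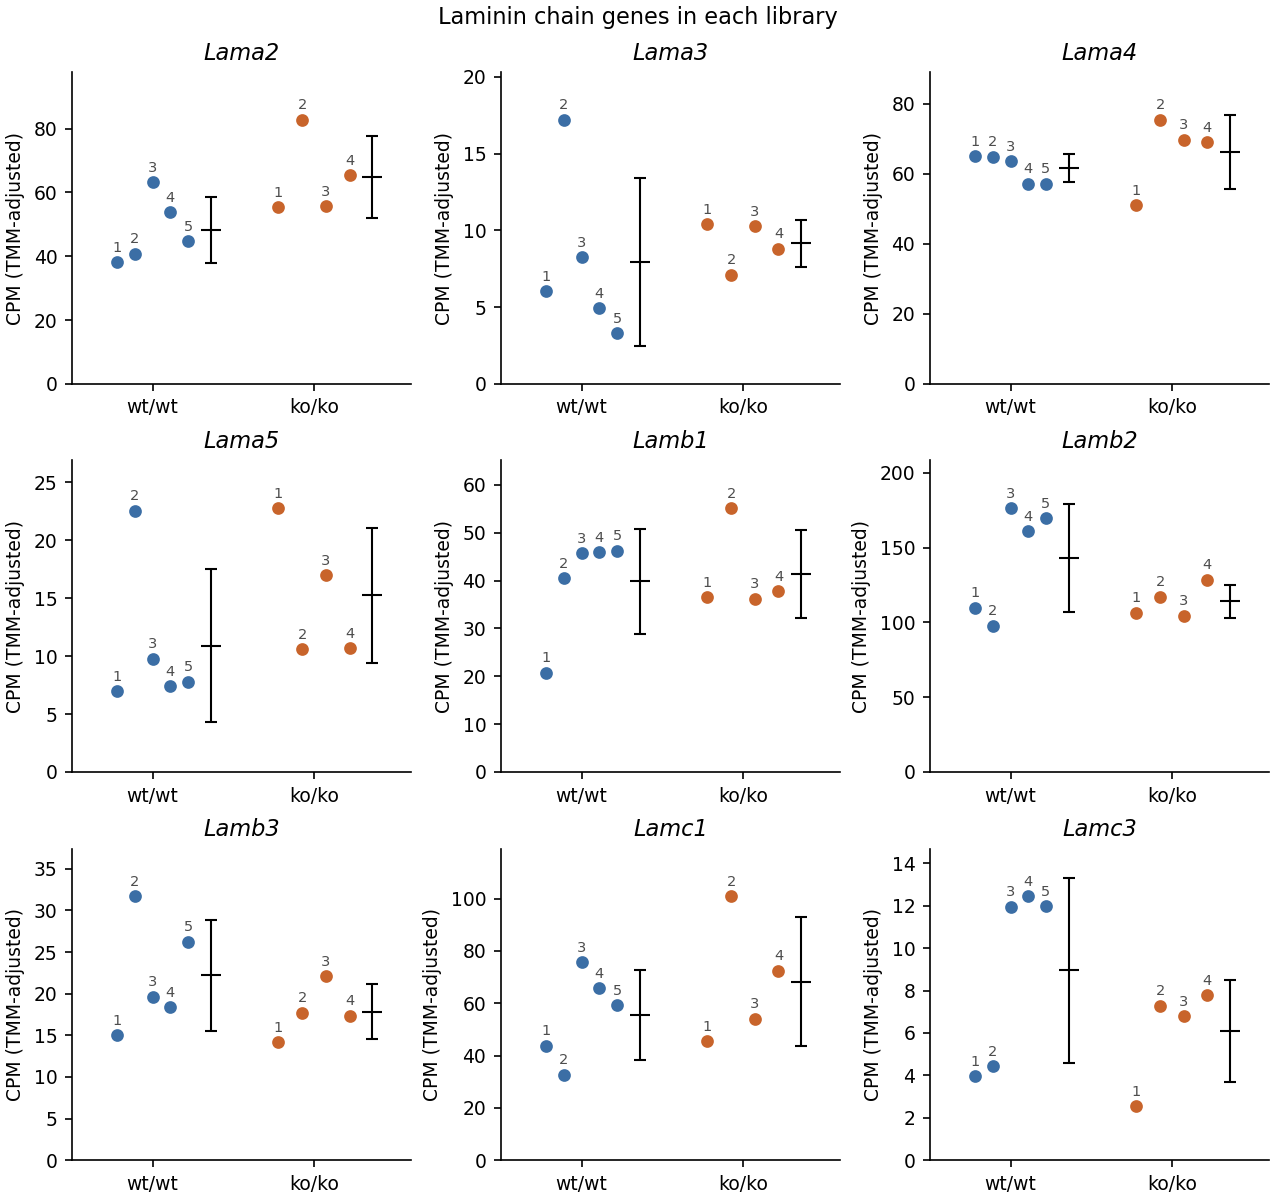
CPM of the 9 laminin chain genes in each library, with replicate numbers above the points and the mean ± SD of each genotype beside them (n = 5 wt/wt and n = 4 ko/ko). The genotypes overlap in every panel; wt/wt replicate 2 is the highest library for Lama3 and Lamb3, and wt/wt replicates 3 to 5 are the highest 3 for Lamb2 and Lamc3.

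Compared per length of exon (CPM per kilobase), Lamb2 was the most abundant of the laminin transcripts described in every library. That length counts every annotated exon base of a gene, which a single transcript need not hold, so levels of different genes compare only roughly. Lamb2, the beta-2 chain of vessel, nerve and muscle basement membranes, had 23.5 ± 5.97 CPM per kilobase (SD, n = 5) in wt/wt and 18.8 ± 1.83 (SD, n = 4) in ko/ko. It made up 64.5% to 80.6% of all beta chain transcript in wt/wt libraries and 70.1% to 76.7% in ko/ko. Lamc1, the gamma-1 chain shared by most laminins, came next at 6.70 ± 2.08 and 8.25 ± 2.96 CPM per kilobase, followed by Lama4 at 5.11 ± 0.337 and 5.50 ± 0.876. Lamc1 lay above Lama4 in 3 of 5 wt/wt and 4 of 4 ko/ko libraries, so this pair is not ordered beyond the spread in wt/wt. Lamb1, Lamb3 and Lama2 formed a middle group, with wt/wt means of 4.01, 3.36 and 2.95 CPM per kilobase. Within that group the order varied, since Lamb1 exceeded Lamb3 in 3 of 5 wt/wt libraries and Lamb3 exceeded Lama2 in 2 of 5.

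The lowest members per length were Lamc3, Lama5 and Lama3. Their wt/wt means were 1.47, 0.957 and 0.740 CPM per kilobase, and their ko/ko means were 1.00, 1.34 and 0.851. Lama3 was below Lama5 in 5 of 5 wt/wt libraries, and Lamc3 was above Lama5 in 4 of 5. In ko/ko, Lama5 exceeded Lamc3 in 2 of 4 libraries. Lama1, a chain of embryonic and kidney basement membranes, had 4 to 13 counts per library and at most 0.0667 CPM per kilobase.

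Set beside its trimer partners, the alpha chain often had the lowest level per length of exon. Lama5 had the lowest level per length of the laminin-511 chains in 9 of 9 libraries. Lama2 was lowest of the laminin-221 chains in 9 of 9 libraries. In laminin-411 the lowest chain was Lamb1, in 8 of 9 libraries. Among alpha chains, Lama4 took 46.8% to 60.3% of the summed level per length in wt/wt and 39.8% to 49.6% in ko/ko. The alpha genes have long exon totals, 16338 bases for Lama2, 12068 for Lama4 and 11388 for Lama5. Lamb1 has 9917, Lamc1 8272 and Lamb2 6082. In CPM, not divided by length, Lama2 lay above Lamc1 in wt/wt replicate 2 (40.8 against 32.7 CPM). The part of exon length in these orders and shares was not tested. These are RNA levels of all sorted cells together, and no trimer was measured.

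**Figure D2:**
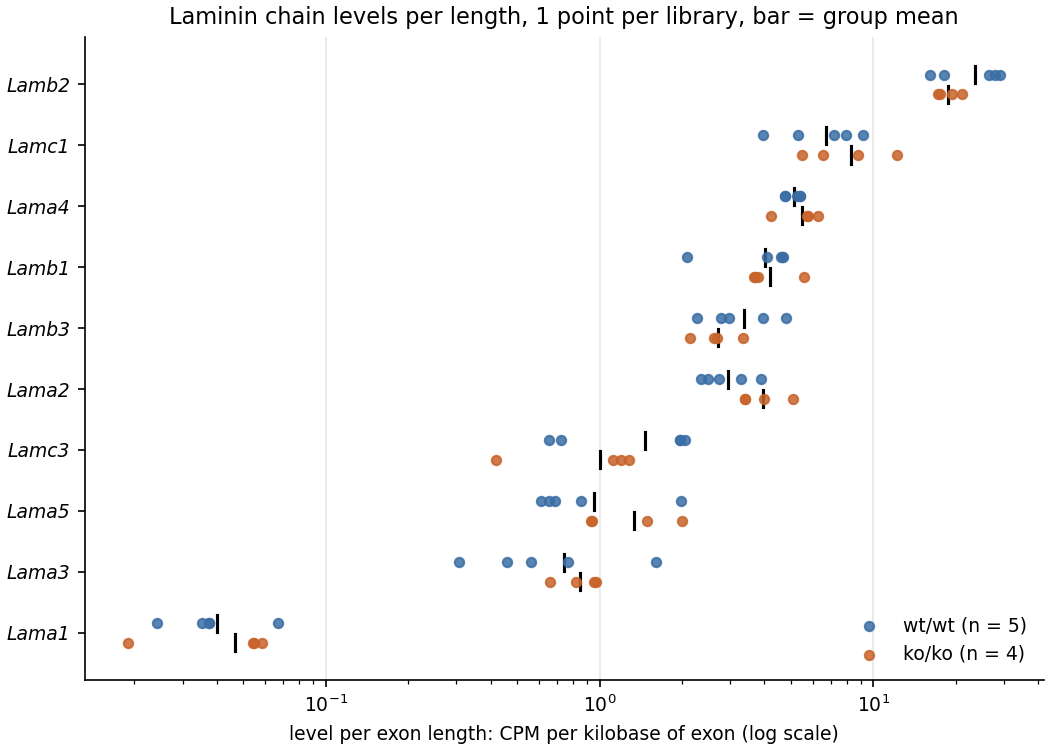
Level of each laminin chain gene in CPM per kilobase of exon on a log scale, 1 point per library, with black bars at the genotype means. Lamb2 stands above all other chains shown, at 16.1 to 29.0 in wt/wt and 17.2 to 21.1 in ko/ko, and Lama1 lies far below the rest.

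Lama3, an epithelial alpha chain that binds the integrins of hemidesmosomes, was highest in the library with the most basal keratinocyte markers. Lama3 (ENSMUSG00000024421, mm10 chromosome 18, 12333819 to 12583013, plus strand) had 6.05, 17.2, 8.25, 4.93 and 3.31 CPM in wt/wt replicates 1 to 5 and 10.4, 7.11, 10.3 and 8.80 CPM in ko/ko replicates 1 to 4. The wt/wt samples thus held both the highest and the lowest values, with wt/wt replicate 2 above all others. The log2 fold change was 0.20 (SE 0.41, edgeR adjusted p = 0.846), with a 95% interval of -0.69 to 1.10. Without wt/wt replicate 2 it was 0.70 (SE 0.29, edgeR adjusted p = 0.274), and without wt/wt replicate 5 it was 0.0042. Of its exon bases, 1.83% are shared with Gm29200 on the other strand, which had at most 8 counts in a library.

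Lamb3, a beta chain of epithelial basement membranes, shared that highest library but not the order of the others. Lamb3 (ENSMUSG00000026639, chromosome 1, 193207699 to 193343878, plus strand) had 15.0, 31.7, 19.6, 18.4 and 26.2 CPM in wt/wt and 14.2, 17.7, 22.1 and 17.3 CPM in ko/ko. Both genotypes spanned nearly the same low end, and the top 2 libraries were wt/wt replicates 2 and 5. Its log2 fold change was -0.31 (SE 0.23, edgeR adjusted p = 0.539), and -0.15 (edgeR adjusted p = 0.750) without wt/wt replicate 2.

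Lama5, the alpha chain of laminin-511 and laminin-521, was high in the same 3 libraries that led in basal keratinocyte markers. Lama5 (ENSMUSG00000015647, chromosome 2, 180176373 to 180225859, minus strand) had 22.5 CPM in wt/wt replicate 2 and 6.97, 9.77, 7.42 and 7.80 CPM in wt/wt replicates 1, 3, 4 and 5. In ko/ko replicates 1 to 4 it had 22.8, 10.6, 17.0 and 10.7 CPM. Every ko/ko library lay above 4 of the 5 wt/wt libraries, and wt/wt replicate 2 lay within the ko/ko range. Its log2 fold change, 0.48 (SE 0.38, edgeR adjusted p = 0.564), had a 95% interval of 0.786 to 2.48 fold. Without wt/wt replicate 2 the value was 0.93 (SE 0.27, edgeR adjusted p = 0.165). It was 0.22 without ko/ko replicate 1 (edgeR adjusted p = 0.886), 0.21 without the 3 libraries with most reads of Gm10800 and Gm10801 and 0.24 with the length trend removed, so its size rests on single libraries and on the processing. Of the 15 basal keratinocyte markers, edgeR and DESeq2 called 0. Voom called 3 of the 15 as higher, against 6.6% of all genes. The part of the keratinocyte marker level in the Lama5 difference was not tested.

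Annotated start regions of the alpha-5 and beta-3 genes are set beside one of the alpha-2 gene, to show how far they differ in base composition. Lama5 and Lamb3 both had their wt/wt maximum in replicate 2, as did Lama3. The regions printed for Lamb3 and Lama2 lie inside the gene spans given here (193207699 to 193343878 and 26980036 to 27619758), not at their outer starts. RefSeq promoter windows (GRCm38.p6, 250 bases before to 50 after a start) were matched by symbol. Those of Lama2, Lama5, Lamb1, Lamb2 and Lamb3 were used, and none of Lama3, Lama4, Lamc1 or Lamc3 was examined. Each sequence runs 5′ to 3′ on the gene's strand, with capitals marking GC boxes (GGGCGG, or CCGCCC for the other strand), the motif bound by Sp1-type factors.
Lama5, chr2:180225810-180226109, minus strand: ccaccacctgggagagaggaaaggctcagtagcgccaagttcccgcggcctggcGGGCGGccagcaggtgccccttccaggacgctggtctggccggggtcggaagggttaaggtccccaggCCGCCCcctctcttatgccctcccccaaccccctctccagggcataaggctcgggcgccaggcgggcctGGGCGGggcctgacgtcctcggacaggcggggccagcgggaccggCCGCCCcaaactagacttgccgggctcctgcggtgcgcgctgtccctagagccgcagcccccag
Lamb3, chr1:193301744-193302043, plus strand: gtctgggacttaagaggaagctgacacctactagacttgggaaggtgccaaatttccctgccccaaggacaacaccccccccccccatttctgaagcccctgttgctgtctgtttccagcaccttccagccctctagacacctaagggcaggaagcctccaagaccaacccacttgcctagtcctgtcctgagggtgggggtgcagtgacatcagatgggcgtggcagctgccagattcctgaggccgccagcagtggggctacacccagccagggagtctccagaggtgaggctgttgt
Lama2, chr10:27616893-27617192, minus strand: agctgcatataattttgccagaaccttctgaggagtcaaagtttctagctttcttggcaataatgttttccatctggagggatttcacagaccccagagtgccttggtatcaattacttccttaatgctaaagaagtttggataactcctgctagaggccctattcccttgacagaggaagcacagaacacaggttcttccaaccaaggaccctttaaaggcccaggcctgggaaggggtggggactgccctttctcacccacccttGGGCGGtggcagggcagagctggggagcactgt
The Lama5 window had 72.7% G and C bases, 24 CpG pairs and 4 GC boxes. The Lamb3 window above had 59.3% G and C, 2 CpG pairs and 0 GC boxes, and the Lama2 window had 50.3%, 1 CpG pair and 1 GC box. The windows of Lamb1 and Lamb2 held 2 and 0 GC boxes. Over all 32851 windows of this length, 35.7% held at least 1 GC box, and the median number of CpG pairs was 7. The AP-1 element TGANTCA, in 7.81% of all windows, was in none of the 6 windows of these 5 genes, one of which, a further Lamb3 window, starts within the printed one.

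Lama2, the alpha chain of the laminins of muscle and nerve, had the smallest p-value of the 9 genes. Lama2 (ENSMUSG00000019899, chromosome 10, 26980036 to 27619758, minus strand) had 38.2, 40.8, 63.2, 53.7 and 44.7 CPM in wt/wt and 55.4, 82.8, 55.7 and 65.3 CPM in ko/ko. All 4 ko/ko libraries lay above 4 of the 5 wt/wt libraries, and wt/wt replicate 3 lay above ko/ko replicates 1 and 3. The log2 fold change of 0.43 (SE 0.19, unadjusted p = 0.0411, edgeR adjusted p = 0.308) had a 95% interval of 1.01 to 1.79 fold. At 16338 exon bases Lama2 is the longest of the 9 genes. Of 2220 genes over 8 kilobases of exon, 67.3% had positive log2 fold changes, with a median of 0.20, against 40.0% and a median of -0.10 among 5208 genes under 2 kilobases. After correction of every library for its dependence on exon length, the Lama2 value was 0.05 (SE 0.25, edgeR adjusted p = 0.930). Whether exon length is the cause of the Lama2 difference was not tested. In that fit 0 of the 9 genes had an unadjusted p under 0.05, against 6.68% of all genes higher and 9.6% lower.

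Lama4, the alpha chain of vessel laminins, varied least within wt/wt. Lama4 (ENSMUSG00000019846, chromosome 10, 38965515 to 39110188, plus strand) had 65.1, 65.0, 63.6, 57.2 and 57.2 CPM in wt/wt and 51.1, 75.5, 69.8 and 69.0 CPM in ko/ko. Its coefficient of variation was 6.61% in wt/wt and 15.9% in ko/ko, with ko/ko replicate 1 below and the other 3 ko/ko libraries above all wt/wt libraries. The log2 fold change was 0.11 (SE 0.14, edgeR adjusted p = 0.754), with a 95% interval of 0.869 to 1.33 fold. It ran from 0.04 without ko/ko replicate 2 to 0.21 without ko/ko replicate 1, and was -0.16 (SE 0.16, edgeR adjusted p = 0.650) with the length trend removed. Blood endothelial markers, 12 genes, summed to 319.9 to 515 CPM in wt/wt and 298 to 527 CPM in ko/ko, and 0 of the 12 passed edgeR's adjusted threshold. At an unadjusted p under 0.05, 2 of the 12 were higher, Flt1 (1.45) and Vwf (1.00), and 3 were lower, Emcn (-0.86), Tie1 (-0.66) and Cldn5 (-0.65), as log2 fold changes. Over all genes, 8.86% were higher and 6.42% lower at that p. DESeq2 called Flt1, a receptor for vascular growth factor, as higher (adjusted p = 0.00569), and voom called 0 of the 12. Of all genes, DESeq2 called 2.53% as higher. The 5 genes were picked for their p-values, and their part in the Lama4 values was not tested.

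Lamb1 and Lamc1 are the beta-1 and gamma-1 chains that most laminins share. Lamb1 (ENSMUSG00000002900, chromosome 12, 31265234 to 31329644, plus strand) had 20.7, 40.5, 45.8, 45.9 and 46.2 CPM in wt/wt and 36.5, 55.2, 36.2 and 37.7 CPM in ko/ko. A single library stood low in wt/wt and a single one high in ko/ko. Its log2 fold change, 0.06 (SE 0.24, edgeR adjusted p = 0.929), became -0.10 when wt/wt replicate 1 was left out and -0.11 when ko/ko replicate 2 was. Lamc1 (ENSMUSG00000026478, chromosome 1, 153218922 to 153332786, minus strand) had 43.8, 32.7, 75.6, 65.6 and 59.2 CPM in wt/wt and 45.6, 100.9, 54.1 and 72.5 CPM in ko/ko. The 4 lowest Lamc1 values were in the 4 libraries with the lowest fibroblast marker sums. Its log2 fold change was 0.30 (SE 0.28, edgeR adjusted p = 0.628), with 0.05 without ko/ko replicate 2, the highest library, and 0.16 without wt/wt replicate 2, the lowest.

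Lamb2 and Lamc3 were both low in the libraries with few fibroblast markers. Lamb2 (ENSMUSG00000052911, chromosome 9, 108479736 to 108490530, plus strand) had 109.9, 97.9, 177, 161 and 169 CPM in wt/wt and 106, 117, 105 and 129 CPM in ko/ko. Wt/wt replicates 3 to 5 were above every ko/ko library, while wt/wt replicates 1 and 2 lay among or below them. Lamc3, a gamma chain without the integrin-binding end of gamma-1, is encoded by ENSMUSG00000026840 (chromosome 2, 31887291 to 31946539, plus strand) and had 3.97, 4.42, 12.0, 12.5 and 12.0 CPM in wt/wt and 2.54, 7.29, 6.80 and 7.79 CPM in ko/ko. The order of libraries was alike: wt/wt replicates 3 to 5 lay above all ko/ko libraries, and the lowest Lamc3 values were those of ko/ko replicate 1 and wt/wt replicates 1 and 2. The log2 fold changes were -0.32 for Lamb2 (SE 0.19, edgeR adjusted p = 0.448) and -0.55 for Lamc3 (SE 0.43, edgeR adjusted p = 0.564). These are the 2 genes that voom had as lower at an unadjusted p under 0.05, against 12.5% of all genes. In voom Lamb2 was at -0.47 (voom adjusted p = 0.0587) and Lamc3 at -0.67 (voom adjusted p = 0.160). Lamb2 was at -0.43 without wt/wt replicate 2 (edgeR adjusted p = 0.255) and at -0.20 with library totals alone (edgeR adjusted p = 0.590). Without ko/ko replicate 1, its lowest library, Lamc3 was at -0.30 (edgeR adjusted p = 0.841). Of the Lamc3 exon bases, 6.27% are shared with Gm13441 on the other strand, which had at most 1 count in a library.

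Among the 5 libraries with the highest fibroblast marker sums, wt/wt replicates 3 to 5 had 161 to 177 CPM of Lamb2 and 12.0 to 12.5 CPM of Lamc3. In ko/ko replicates 2 and 4, of the same range of fibroblast markers, Lamb2 had 117 and 129 CPM and Lamc3 had 7.29 and 7.79 CPM. Leaving out the 3 libraries with the lowest fibroblast marker sums (ko/ko replicate 1, wt/wt replicates 1 and 2), an alternative chosen after seeing the data, gave 3 samples of each genotype. In that fit, 2 of the 9 genes passed as lower in ko/ko, Lamb2 at -0.53 (SE 0.13, edgeR adjusted p = 0.0259) and Lamc3 at -0.73 (SE 0.17, edgeR adjusted p = 0.0216), and 0 passed as higher. The same fit called 5.02% of all genes as lower and 8.4% as higher. At an unadjusted p under 0.05 it had 1 of the 9 higher and 2 lower, against 16.9% and 13.6% of all genes. The choice was not independent of either gene. The 3 libraries left out held the lowest Lamc3 values, and the 2 wt/wt libraries among them were the only ones of that genotype to overlap ko/ko in Lamb2. The fit also kept ko/ko replicate 3, which had the lowest Lamb2 value of its genotype and a fibroblast sum of 42398 CPM. These calls are therefore a description of the 6 libraries kept. The same 6 libraries differed without overlap in mitochondrial reads, at 2.77% to 6.08% of counts in wt/wt and 1.81% to 2.01% in ko/ko. They also differed in reads of Gm10800 and Gm10801, at 3.67 to 4.83 CPM in wt/wt and 28.7 to 14850 CPM in ko/ko, and the part of both in the Lamb2 and Lamc3 values was not tested. Of the 15 fibroblast markers, 10 had positive and 5 negative log2 fold changes in the comparison of all 9 libraries, and 0 passed.

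**Figure D3:**
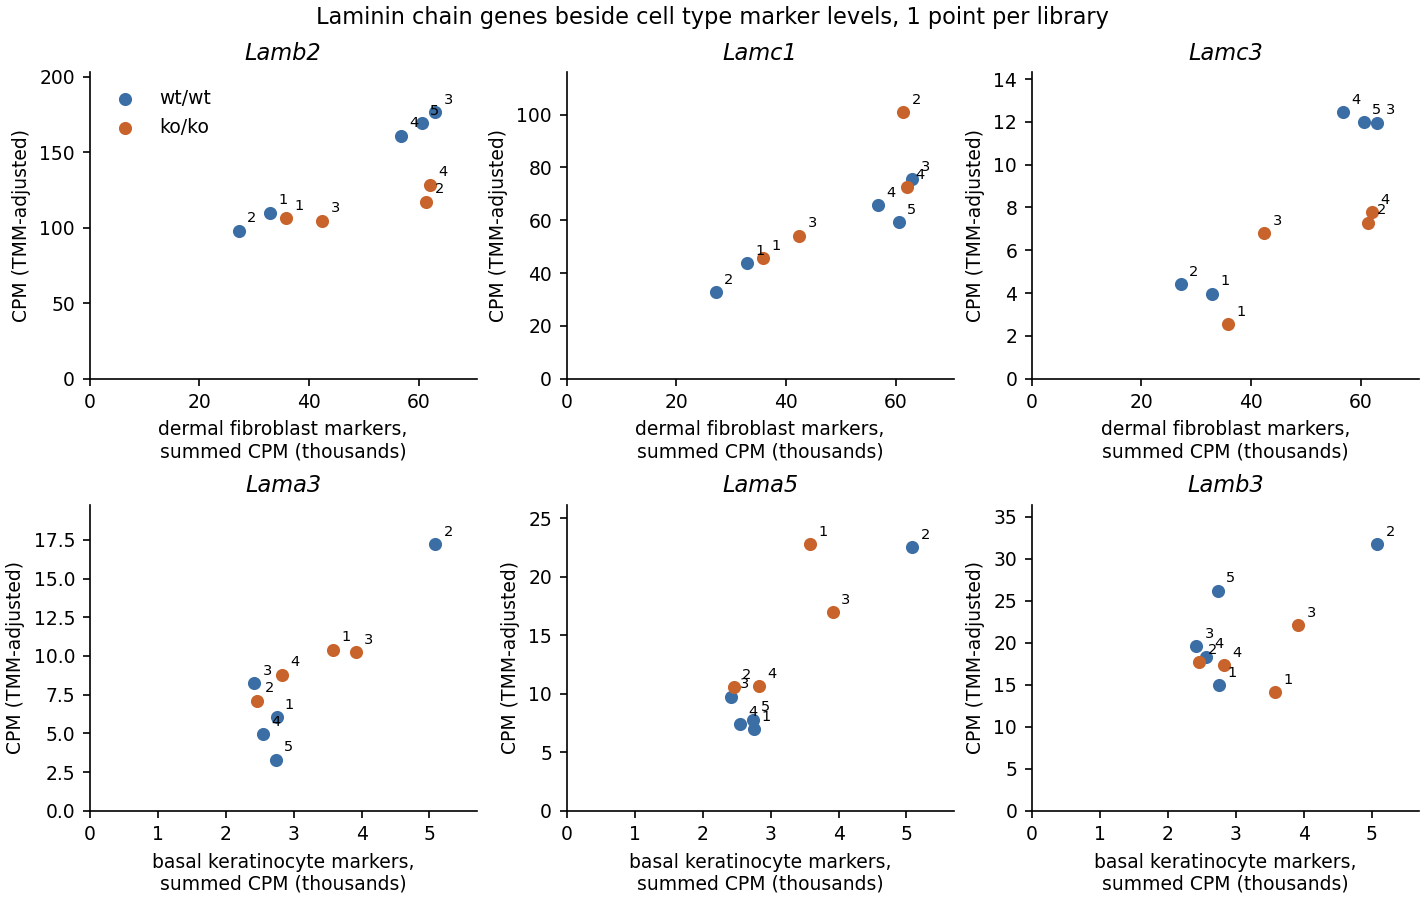
CPM of Lamb2, Lamc1 and Lamc3 against the summed CPM of 15 fibroblast markers (top row), and of Lama3, Lama5 and Lamb3 against that of 15 basal keratinocyte markers (bottom row), 1 point per library with its replicate number. At 56689 to 63000 CPM of fibroblast markers, the wt/wt points of Lamb2 (161 to 177 CPM) and Lamc3 (12.0 to 12.5 CPM) lie above the ko/ko points; the 2 highest Lama5 values are those of ko/ko replicate 1 and wt/wt replicate 2.

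**Figure D4:**
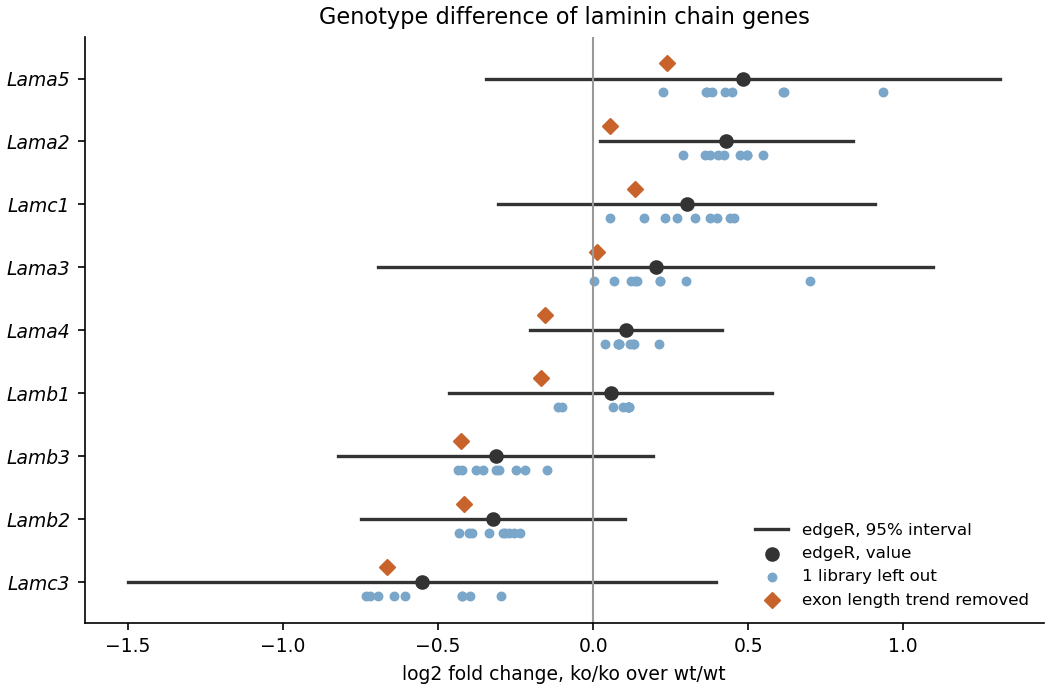
Log2 fold change of ko/ko over wt/wt for each of the 9 genes with its 95% interval (black), with each library left out in turn (blue) and with the exon length trend removed (orange). The interval of Lama2 alone lies above 0, from 0.02 to 0.84, and its length-corrected value is 0.05; Lama4 and Lamb1 change sign with the length correction, and Lamb1 also in fits that leave out a library.

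Marker levels of other cell types that make laminins also differed between libraries. Schwann cell markers (10 genes) summed to 720 to 1919 CPM in wt/wt and 1071 to 1623 CPM in ko/ko, and pericyte and smooth muscle markers (10 genes) to 235 to 577 and 311 to 445 CPM. For both lists, the lowest 3 sums were in the libraries where Lamc3 was also lowest. Lymphatic endothelial markers (6 genes) summed to 395 to 858 CPM in wt/wt and 209 to 314 CPM in ko/ko, and 4 of the 6 lay lower without overlap, against 2.74% of all genes. Of these 6, 5 had an unadjusted p under 0.05 as lower, against 6.42% of all genes. As lower, edgeR called 0, DESeq2 3 and voom 2, against 0%, 1.11% and 3.17% of all genes. Lyve1, a hyaluronan receptor of lymphatic vessels, had the smallest p-value of the 6. It was at -1.63 (SE 0.28, edgeR adjusted p = 0.0951) and passed in DESeq2 (adjusted p = 2.82e-05) and voom (adjusted p = 0.0127). Myeloid and leukocyte markers (12 genes) summed to 20.2 to 91.0 CPM in wt/wt and 42.7 to 252 CPM in ko/ko, and 10 of 11 tested had an unadjusted p under 0.05 as higher, against 8.86% of all genes. Among these, edgeR called 0, DESeq2 5 and voom 3 as higher, against 0.00542%, 2.53% and 6.6% of all genes. Skeletal muscle, adipocyte and melanocyte markers summed to at most 163, 234 and 599 CPM. The first 3 genes of each list had counts in all 9 libraries, some of them very few. Myh4, of the skeletal muscle list, had 0.138 to 0.763 CPM in wt/wt and 0.0469 to 0.362 CPM in ko/ko. Counts that low do not show that a cell type was present. The part of these cell types in the laminin values was not tested.

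Partners of laminin in the basement membrane had a median log2 fold change of -0.03, the same as that of all genes to 2 decimals. Of 20 genes of this list, all tested, 8 were positive and 12 negative, and edgeR called 0 in either direction. At an unadjusted p under 0.05, 0 were higher and 2 lower, against 8.86% and 6.42% of all genes. Col18a1, whose product is cleaved to endostatin, had a mean of 31.1 CPM in the 5 wt/wt libraries (SD 2.12) and of 18.3 CPM in the 4 ko/ko libraries (SD 5.13), without overlap. Col18a1 was the 1 gene of the list without overlap, against 6.25% of all genes. It passed in DESeq2 (adjusted p = 0.0165) and voom (adjusted p = 0.0242) but not in edgeR (adjusted p = 0.151). Nid2, a nidogen that links laminin to collagen IV, had means of 91.2 CPM (SD 29.3) and 48.2 CPM (SD 17.6) in the same order, and passed in voom alone (adjusted p = 0.0155, edgeR adjusted p = 0.216).

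Laminin receptors had 5 positive and 9 negative members of 14 (median -0.10), with 0 called by edgeR. In each direction 1 had an unadjusted p under 0.05, against 8.86% of all genes higher and 6.42% lower. Itga6, the receptor chain used for the sort, stood at 0.64 on the log2 scale (SE 0.17, edgeR adjusted p = 0.157) and was called higher by DESeq2 (adjusted p = 0.0267) and voom (adjusted p = 0.0187). Rpsa, a ribosomal protein also described as a laminin receptor, had -0.61 (SE 0.26, edgeR adjusted p = 0.296). It has processed pseudogene copies, so its counts are uncertain. Among 18 genes of the dystroglycan sugar chain and its linkage to the cell, 6 were positive and 12 negative (median -0.11), and edgeR called 0. At an unadjusted p under 0.05, 1 was higher and 0 lower, against 8.86% and 6.42% of all genes. The same gene alone of the 18 lay without overlap, against 6.25% of all genes. That gene was Pomt1, an enzyme that starts the sugar chain by which dystroglycan binds laminin, with means of 10.1 CPM in wt/wt (SD 1.09) and 15.2 CPM in ko/ko (SD 3.84), without overlap (edgeR adjusted p = 0.210).

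Of 8 netrins and other genes with a laminin-type N-terminal domain, 6 were tested, 4 positive and 2 negative, and edgeR called 0. At an unadjusted p under 0.05, 2 of the 6 were higher and 0 lower, against 8.86% and 6.42% of all genes. Of the 6, 1 lay without overlap, against 6.25% of all genes. Ntn4, a netrin that binds laminin and interrupts its network, had means of 1.35 CPM in wt/wt (SD 0.649) and 2.93 CPM in ko/ko (SD 0.385), without overlap (edgeR adjusted p = 0.243). Of 10 proteases that cut laminin, 6 were tested and 0 called. Against 8.86% of all genes, 2 of the 6 were higher at an unadjusted p under 0.05. These were Mmp14, a membrane-bound matrix metalloproteinase, at 0.49 (SE 0.20, edgeR adjusted p = 0.275), and Plat, the tissue plasminogen activator, at 0.52 (SE 0.21, edgeR adjusted p = 0.287), as log2 fold changes. Of 13 chaperones and export factors for matrix proteins, 5 were positive and 8 negative, with 0 called and 0 at an unadjusted p under 0.05. Neither DESeq2 nor voom called a member of these last 3 lists. In the dystroglycan list voom called 1 gene as lower, Sspn (adjusted p = 0.0325), and of the receptors Rpsa (adjusted p = 0.0359).

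Among 18434 other tested genes, the closest to each laminin gene over the 9 libraries were ranked by the Pearson correlation of log2 CPM. These values describe libraries that share cell mixture, depth and genotype, and the genes were picked for them. Lama5 was closest to Kif24 (0.982), Gm26688 (0.974) and Klk11 (0.962), the last a serine protease of differentiating epidermis. Lama3 was closest to Pogz (0.944), Il1f5 (0.935), an epidermal cytokine antagonist, and Zgrf1 (0.930). Lamb2 was closest to Bola2 (0.984) and Lamc3 to Gm8566 (0.993), Abhd4 (0.992) and Elovl5 (0.992), the last a fatty acid elongase. Lama2 was closest to Pxdn (0.980), a peroxidase that crosslinks collagen IV, and Lama4 to Prkci (0.979) and Gli3 (0.956). Lamc1 was closest to Hikeshi (0.973), Lamb1 to Necab1 (0.961) and Lamb3 to Rad51ap1 (0.906).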

How the data were processed

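The authors deposited a table of whole-number read counts, not normalized, with a column for every sample and one for exon length. Per the submitters' processing notes, reads were processed with GSNAP and featureCounts 1.6.2 on mm10, and the table's name gives Ensembl release 87. Per the labels' protocols, cDNA of polyadenylated RNA was made by SMARTseq2 with 13 cycles of amplification and tagmented. The sources used here do not state strand or multi-mapping settings.

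Here 92 spike-in rows were left out, and symbols were matched by identifier to GENCODE M21 (49326 of 49671 rows). Genotypes were compared in edgeR 4.0.16 (R 4.3.3), after filterByExpr had kept 18435 genes, with TMM scaling and robust glmQLFit. The quasi-likelihood F test was two-sided, and p-values were adjusted by Benjamini-Hochberg over all genes kept, with 0.05 as the threshold. The SE of a log2 fold change was derived from its size and F. On simulated counts of 18435 genes the test found 18 of 100 genes with a 2-fold change and 69 of 100 with a 4-fold change, and 2 of its 89 calls were false. Those shares describe the simulated counts and need not hold for these libraries, whose cell mixture varied. Alternatives used DESeq2 1.42.0 and limma 3.58.1 among others. Depending on the library, 1 count was worth 0.0431 to 0.0641 CPM before TMM.

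The 9 genes and the gene lists were chosen with earlier results of these data known. Named are the 9 genes, Lama1, up to 4 genes per pathway list with the smallest p-values and up to 3 genes most like each laminin gene. Of the markers, Dcn, Gsn and Krt14 are named for their levels. The others are the blood endothelial markers with an unadjusted p under 0.05 and Lyve1, which had the smallest p-value of its list. Of 184 list entries, 183 had a row. Positions are those of the authors' table.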

Additional observations from a re-analysis of the deposited data

Results flagged for a closer look

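Single libraries stood apart from the rest of their genotype in 5 of 20 groups of log2 CPM values tested (10 laminin genes in 2 genotypes), where chance gives about 1 in 20. Lama5 stood at 22.5 CPM in wt/wt replicate 2, where its other wt/wt values ran from 6.97 to 9.77 CPM. For Lamb1, wt/wt replicate 1 was low (20.7 CPM, others 40.5 to 46.2 CPM) and ko/ko replicate 2 was high (55.2 CPM, others 36.2 to 37.7 CPM). For Lamc3, ko/ko replicate 1 was low (2.54 CPM, others 6.80 to 7.79 CPM). For Lama1, ko/ko replicate 2 was low (0.181 CPM from 4 counts, others 0.516 to 0.556 CPM). Rows of spike-in RNA, which enter no test, summed to 6 counts in wt/wt replicate 1, more than the 3 counts that a true level of 0 is taken to permit, and to between 1 and 3 in all other libraries.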

How the results depend on the processing

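Each of the 9 laminin genes was refitted under 20 alternatives; 172 of 180 values kept their direction and their side of the threshold. Lamb1 (0.06 with all libraries) was -0.14 with limma voom with quality weights, -0.17 with the exon length trend removed, -0.089 without the 3 libraries lowest in fibroblast markers. It ranged from -0.11 to 0.12, and was -0.10 without wt/wt replicate 1, over the fits that left out 1 library. Lama4 was -0.16 with the exon length trend removed. Without the 3 libraries lowest in fibroblast markers, Lamb2 (-0.53) and Lamc3 (-0.73) passed, 2 laminin genes were called lower, and 1515 genes were called higher and 905 lower over all genes; the cause was not tested. Over all genes, where the fit of 9 libraries called 1 higher (Clmp) and 0 lower, library totals alone called 4 higher, no filter beyond 1 count 26 higher and 2 lower, DESeq2 438 higher and 192 lower, limma voom 1217 higher and 585 lower, the exon length trend removed 0 higher, and leaving out the 3 libraries with most Gm10800-group reads 7 higher. Fits that left out 1 library called 0 to 12 genes higher over all genes. The median of all genes moved from -0.03 to 0.08 with library totals alone and to 0.14 with no filter. No paired analysis was possible because the labels give no replicate numbers, and those used here follow the order of the records and pair nothing. With limma voom, Lama2 was 0.27, Lama3 0.63, Lama4 0.19, Lamc1 0.08 and Lamb3 -0.16, each moved by more than 1.5 times and none called; with library totals alone Lamb2 was -0.20 and Lama4 0.21. The number of samples limits precision most for Lamc3 (interval 0.354 to 1.32 fold) and Lama3 (0.618 to 2.14 fold) and least for Lama4 (0.869 to 1.33 fold).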
